A study of Mus musculus with 12 samples.

Results

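The knockdown of Hnrnpa0 in undifferentiated progenitors is described here from 6 of the study's 12 arrays: 3 arrays of PUER cells carrying a short hairpin RNA (shRNA) against Hnrnpa0 and 3 arrays of PUER cells carrying the control vector, all collected as undifferentiated progenitors. The 6 arrays were chosen by their titles. PUER is a mouse myeloid progenitor line made from cells that lack the transcription factor PU.1; a fusion of PU.1 to the hormone-binding domain of the estrogen receptor was put back, and the cells depend on IL-3. All groups share this PU.1-null background, the fusion protein, the IL-3 and a retroviral vector marked with GFP, on which the cells were sorted, so the control cells are not wild-type progenitors. The other 6 arrays hold the same vectors after 24 h in 2 nM 4-hydroxytamoxifen (4-OHT), the drug that activates the fusion. Replicates A, B and C came from experiments on separate clones of each vector, per the labels. The labels name 1 shRNA construct, so no other hairpin gives a check on it. Hnrnpa0 lies in the stretch of human chromosome arm 5q lost in some myeloid neoplasms, and the study concerns its role in myeloid maturation; the arrays before 4-OHT show the cells from which that maturation starts.

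Hnrnpa0 encodes an RNA-binding protein of the hnRNP A/B family. Such proteins bind pre-mRNA and mRNA through RNA recognition motifs, and hnRNP A0 is known to bind AU-rich elements, sequences in the 3′ untranslated regions of short-lived mRNAs of cytokines and early-response genes. The kinase MK2 phosphorylates it, and bound messages can then be stabilised. An shRNA is processed into a small RNA that guides cleavage of its target, so the mRNA level itself reports on the knockdown.

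Expression was read with 60-base probes. Those below belong to the genes with the target role and with the largest fall among named genes, printed 5′ to 3′. The Hnrnpa0 probe, the dimmer of the gene's 2, lies on chromosome 13 of build mm7 (chr13:57220223-57220282, minus strand), near the brighter one (chr13:57219687-57219746, minus strand). The capitals mark the bases whose open frame spells RGFGFV, a part of the RNP-1 signature of the RNA recognition motif. The Slc4a7 probe lies at chr14:12552686-12552745 (plus strand) and has no such bases. No gene annotation of mm7 was used here, so exons and untranslated regions are not named.
Hnrnpa0 (A_52_P625431): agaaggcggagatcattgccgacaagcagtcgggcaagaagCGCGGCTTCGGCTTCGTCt
Slc4a7 (A_52_P108502): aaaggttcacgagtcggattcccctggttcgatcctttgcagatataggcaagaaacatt

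Levels are log2 intensity less the array's 75th percentile, so 0 is a probe as bright as that percentile. On the 6 arrays, 50.3% to 54.5% of spots were well above background. Within a vector, r between pairs of arrays ran from 0.992 to 0.994, and between vectors from 0.987 to 0.992 (14372 genes, which are not independent replicates). The arrays lay on 3 slides, per the file names. Slide 1 held the 3 control arrays, slide 2 held shRNA A and B, and slide 3 held shRNA C. Before 4-OHT the vectors therefore shared no slide, and vector and slide cannot be told apart from these 6 arrays alone. Progenitor markers were present: 7 of 8, among them Kit, Myb, Mpo, Elane and Gfi1, were well above background on all 6 arrays, while Cd34 was not well above background on any. Of the 6 monocyte markers, 4 (Itgam, Cd14, Mpeg1 and Cd68) were well above background on all 6 arrays. Adgre1 and the tested probe of Csf1r were not so on any of the 6, and 1 other Csf1r probe was so on 1 control array. Of the 7 granulocyte markers, 6 (Camp, Lcn2, Ngp, Mmp8, S100a8 and S100a9) were well above background on all 6 arrays, and the probe read for Ltf on none. None of the 3 megakaryocyte markers was well above background, and of the 2 eosinophil markers Epx did not and Prg2 did on 2 control arrays only, with levels of -1.82, -3.03 and -6.63 in the controls and between -5.82 and -5.20 in the shRNA arrays.

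Hnrnpa0 mRNA was lower on every shRNA array. The brighter probe read 3.11, 3.06 and 2.98 in control A, B and C and 1.93, 1.57 and 1.00 in shRNA A, B and C. The groups did not overlap, and the shRNA arrays differed among themselves, with 46.0% of the control mean left in shRNA A, 36.1% in B and 24.3% in C. The difference was -1.54 (SE 0.18, n = 3 per group), a 2.92-fold fall (limma, adjusted p = 0.0127). The probe printed above read 0.99, 0.77 and 0.70 in the controls and -0.15, -0.53 and -0.98 in the shRNA arrays, in the same order, and differed by -1.37 (SE 0.19). For each probe the exact two-sided permutation p was 0.1, the smallest that 3 arrays against 3 allow. With slide as a fixed block the brighter probe differed by -1.38 (limma, adjusted p = 0.114). On the control arrays after 4-OHT, which lie on slides 1 and 2, it differed by 0.08 between slides. Of those, only control A lies on slide 1, and no vector and treatment lies on both slides 1 and 3. The part of slide was therefore not tested. The adjusted p of the brighter probe was 0.0936 with slide as a random block and 0.137 in a fit to the 6 arrays alone. It was 0.0652 without control B, 0.0691 without control C and 0.0537 without shRNA B, with differences from -1.58 to -1.54.

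Slc4a7 fell further than the target. It encodes an electroneutral sodium bicarbonate cotransporter (NBCn1), which brings bicarbonate into the cell and counters acid. Its probe read 3.02, 2.96 and 3.48 in the controls and 1.26, 1.13 and -0.04 in shRNA A, B and C. As with Hnrnpa0, the groups were apart and shRNA C was the lowest, at 10.96% of the control mean against 27.0% in A and 24.7% in B. The difference was -2.37 (SE 0.33, n = 3 per group), a 5.16-fold fall (limma, adjusted p = 0.0240). It was -1.36 with slide as a fixed block (adjusted p = 0.172). Between the slides of the control arrays after 4-OHT, Slc4a7 differed by -0.59, in the same direction as the change; the part of slide in it was not tested further. The gene has 1 probe on the array. Without single arrays the call ended in 6 cases, with adjusted p of 0.0553, 0.0831 and 0.105 without control A, B and C, 0.0537 without shRNA B, and, through the shared spread, 0.0540 without control B after 4-OHT and 0.0512 without shRNA B after 4-OHT. The difference stayed between -2.60 and -1.36 over all alternatives.

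**Figure D1:**
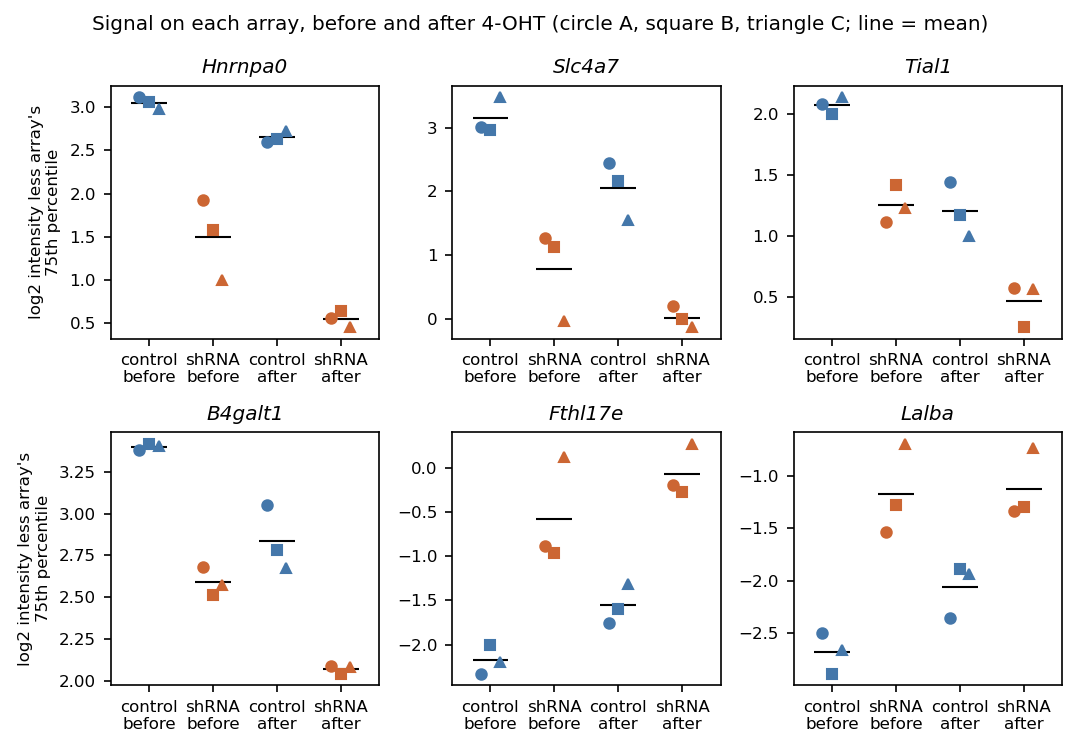
Level of 6 genes on each of the 12 arrays (log2 intensity less the array's 75th percentile) for control (blue) and shRNA (orange) cells before and after 4-OHT; circles, squares and triangles are replicates A, B and C, and lines are group means. Before 4-OHT the control and shRNA arrays of each gene do not overlap, and Hnrnpa0 and Slc4a7 are lowest in shRNA C, at 1.00 and -0.04.

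Of 15062 genes tested, 57 passed the threshold (0.378%; limma, adjusted p under 0.05), of which 22 were higher in shRNA cells (0.146%) and 35 lower (0.232%). Each of the 57 had shRNA and control arrays apart. Fitted changes lay between 1.30-fold and 5.93-fold, and 10 of them reached 2-fold (0.0664%), 6 of these with all 6 arrays well above background. At an unadjusted p under 0.05 there were 3361 genes (22.3%). The 3 shRNA arrays lay all above or all below the 3 control arrays for 4699 genes (31.2%), 1805 above (12%) and 2894 below (19.2%). The called rises had a median control level of -2.38 and the called falls one of 1.19, against -0.05 over all tested genes. Their probes also differed in base composition, with a median GC content of 36.7% for the falls and 43.3% for the rises and for all genes; the part of signal level and base composition in the calls was not tested beyond the alternative below.

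The number of calls moved with single arrays. It was 32, 4 and 0 without control A, B and C, and 496, 1 and 13 without shRNA A, B and C. Arrays after 4-OHT enter through the shared estimate of the spread: the count was 309, 12 and 55 without control A, B and C after 4-OHT, and 26, 19 and 55 without shRNA A, B and C after 4-OHT. In none of these 12 fits did any of the 57 genes change sign. With slide as a block, fixed or random, limma called 0 genes (2526 and 2086 at an unadjusted p under 0.05, 16.8% and 13.8%). All 57 kept their direction. For Prcc and Nab1, which lack control A after 4-OHT, the fixed-block values (-0.79 and -0.63) are those of shRNA C without a slide correction. For the others the fixed block uses the offset between slides 1 and 2 in the control arrays after 4-OHT. No vector and treatment lay on both slides 1 and 3, so the kept directions are not a test of slide. The split also depends on scaling, since quantile normalization called 394 genes with 38 higher (9.65%), against 38.6% higher in the main count, and removal of trends on probe GC content and signal, an alternative chosen after seeing the data, called 126 with 71 higher (56.35%). Normexp background correction called 2, Hnrnpa0 and Slc4a7, both lower.

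Among genes with a symbol, the largest called falls after Slc4a7 and Hnrnpa0 were those of Prr15, Arhgap26, Tial1, B4galt1, Pitpnc1, Arnt, Prcc, Olr1, Ctnnbip1 and Fam3c, which ran from 1.54-fold to 1.95-fold. Tial1 (TIAR) is another RNA-binding protein that recognises U-rich and AU-rich elements and forms stress granules. It read 2.08, 2.0 and 2.14 in the controls and 1.12, 1.42 and 1.22 in the shRNA arrays, without overlap. The difference was -0.82 (SE 0.13, limma, adjusted p = 0.0343), and -0.45 with slide as a fixed block (adjusted p = 0.339). Between the slides of the control arrays after 4-OHT, Tial1 differed by -0.36, in the direction of the change. The part of slide in it was not tested. B4galt1, a Golgi galactosyltransferase, read 3.38, 3.42 and 3.41 in the controls against 2.68, 2.52 and 2.57 (-0.81, SE 0.09; adjusted p = 0.0127). Here the shRNA clones were alike, at 54.1% to 60.6% of the control mean, and C was not the lowest. Its offset between the slides of the control arrays after 4-OHT was -0.32, in the direction of the change.

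Arhgap26 is a GTPase-activating protein for small GTPases and read -0.55, -0.34 and -0.40 in the controls against -1.03, -1.35 and -1.59 (-0.89, SE 0.12). Arnt, the shared partner of the hypoxia-inducible factors and of the aryl hydrocarbon receptor, read 1.34, 1.27 and 1.33 against 0.79, 0.65 and 0.31 (-0.73, SE 0.12). In both, shRNA C was the lowest and the groups were apart. Ctnnbip1 (ICAT), which blocks β-catenin from binding TCF factors, read -2.70, -2.71 and -2.70 against -3.13, -3.44 and -3.44 (-0.63, SE 0.09). The adjusted p of these genes in limma was 0.0228, 0.0408 and 0.0323. Fam3c, a secreted cytokine-like protein, fell by 0.62 (SE 0.08; adjusted p = 0.0179), and Olr1, the receptor for oxidised LDL, fell by 0.64 (SE 0.09; adjusted p = 0.0323).

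The largest called rises of genes with a symbol included Fthl17e, Lalba, Zfp652, Hs6st3, Slc2a6, Arid5b, Csn1s1, Rnase4, Txndc16, Nxpe3 and Plcb1. Fthl17e is a ferritin heavy chain-like gene of an X-linked family of near-identical copies, and which copy gave the signal is uncertain. It read -2.33, -2.0 and -2.20 in the controls and -0.89, -0.96 and 0.13 in shRNA A, B and C (1.60, SE 0.27; limma, adjusted p = 0.0408), so shRNA C stood above A and B. Lalba, which encodes the milk protein α-lactalbumin, the partner of B4galt1 in lactose synthase, read -2.50, -2.89 and -2.66 against -1.54, -1.28 and -0.70 (1.51, SE 0.23; adjusted p = 0.0343). Zfp652, a zinc finger repressor, read -1.95, -1.61 and -1.74 against -0.69, -0.68 and -0.03 (1.30, SE 0.20; adjusted p = 0.0343). In all 3 genes the groups were apart and shRNA C was the highest.

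Txndc16, a thioredoxin-domain protein, read -1.61 on each control array and -1.08, -1.0 and -1.10 on the shRNA arrays (0.55, SE 0.05; limma, adjusted p = 0.0127). The spread within each group was a small part of the gap between them. Slc2a6, a hexose transporter, Arid5b, an AT-rich DNA-binding protein, and Rnase4, a secreted ribonuclease, rose 1.62-fold, 1.51-fold and 1.505-fold. Hs6st3, a heparan sulfate 6-O-sulfotransferase, rose 1.90-fold. Csn1s1, which encodes a casein, was not well above background in the controls (mean -5.04) and was so on all 3 shRNA arrays (mean -4.07); it was at least 1.51-fold higher (adjusted p = 0.0270).

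**Figure D2:**
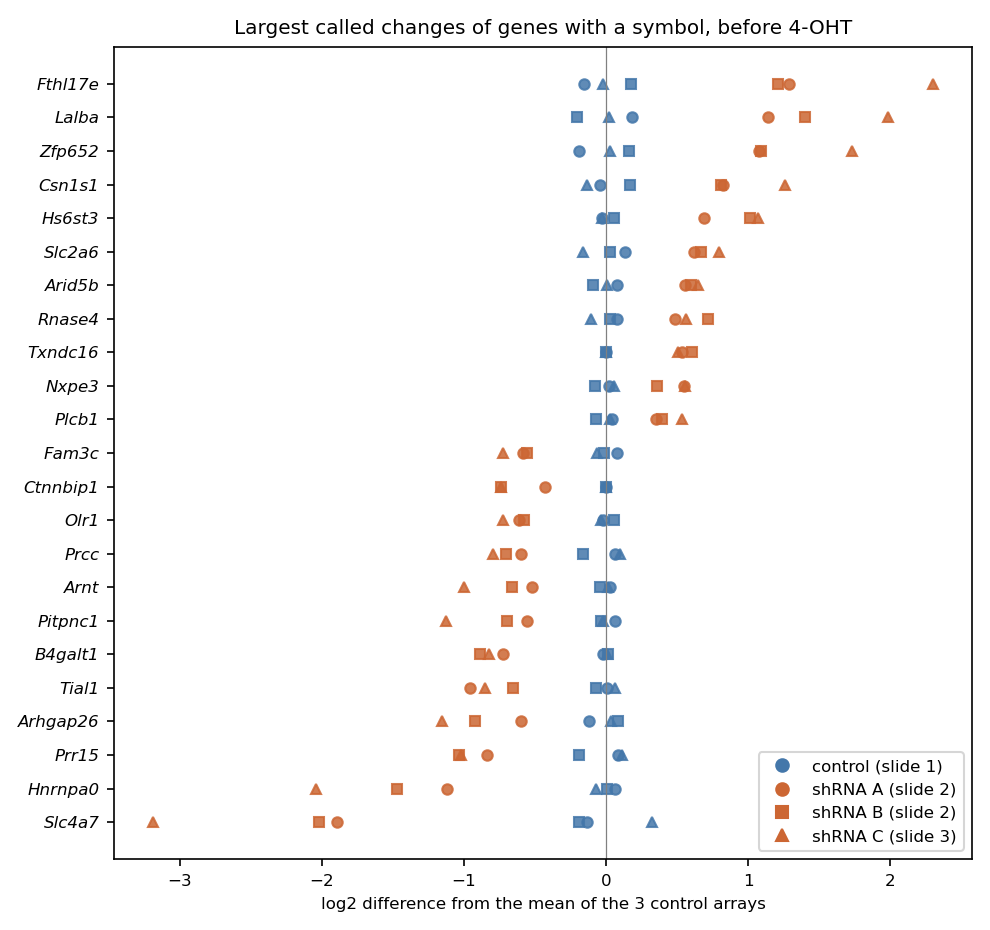
Difference of each array from the mean of the 3 control arrays (log2) for the 12 largest called falls and 11 of the 12 largest called rises before 4-OHT among genes with a symbol; blue points are control arrays, and orange circles, squares and triangles are shRNA A, B and C. No shRNA point reaches the control points of its gene, and shRNA C lies furthest out for Slc4a7, Hnrnpa0, Fthl17e, Lalba and Zfp652.

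The other 33 called genes, named here after their values were seen, comprised 14 transcripts without a gene symbol of their own or with a clone name and 19 named genes. Rises among the named ones included Olfr128 (at least 1.265-fold, with controls not well above background) and Klra2. Klra2 was not well above background on any of the 6 arrays, and neither was the unnamed TC1419302, so these calls give no fold. The falls included Hdac9, a class IIa histone deacetylase (1.49-fold), Nab1, a corepressor of Egr factors (1.47-fold), Shc1, an adaptor that couples cytokine receptors to Ras (1.45-fold), and Mib1, a ubiquitin ligase for Notch ligands (1.47-fold). They also included Zfpm1 (FOG-1), the cofactor of GATA factors (1.36-fold), and Ndst1, which modifies heparan sulfate (1.30-fold). Other probes of Hdac9, Nab1, Mib1 and Ndst1 did not match these falls, as given below. Nab1 and Prcc lacked a value on control A after 4-OHT, and Dglucy on shRNA C after 4-OHT, and these arrays were left out of those genes' fits. The unnamed transcript F730002C09Rik had the largest difference of all 57. It read -2.39, -2.72 and -2.13 in the controls and -5.01, -4.89 and -5.05 in the shRNA arrays, 1 of which was not well above background (5.93-fold lower; limma, adjusted p = 0.0391).

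Repetition across slides was counted for genes on which each shRNA array lay outside the range of the control arrays, on 1 side, and at least 1.5-fold from their mean. All comparisons of the shRNA arrays share the 3 control arrays. There were 183 such genes (1.21%), 78 higher (0.518%) and 105 lower (0.697%). Of these, 24 were also called, 13 higher and 11 lower. On slide 2, 269 genes met the rule in both A and B, and 183 of them (68.0%) also met it in C on slide 3. In the other direction, 1644 genes met it in C, and 11.1% of them did so in A and B too. Single arrays also differed, with 702 genes in A, 898 in B and 1644 in C. Of the genes in A, 38.3% were met in B on the same slide and 42.3% in C on the other; of those in B, 30.0% were met in A and 54.8% in C. Array C thus had the most genes past 1.5-fold, as it had the lowest Hnrnpa0, and it is also the shRNA array on a slide of its own before 4-OHT; clone, knockdown depth and slide cannot be told apart.

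Many repeated genes were dim. The brighter group was well above background on all 3 arrays for 135 of the 183, 97 of the 183 were unnamed transcripts, and their median control level was -4.03. Ordered by the smallest of the 3 array differences, the leading named rises were Ghrl, Hhip, Cfap58, Gjd3, Fthl17e and Caln1, and the leading named falls Slc4a7, Hnrnpa0, Olfr786, Prr15, Olfr266 and B4galt1. Ghrl, which encodes the hormone ghrelin, read -3.91, -3.71 and -5.57 in the controls, the first 2 of them well above background, and -2.59, -2.42 and -1.79 in the shRNA arrays (limma, adjusted p = 0.0641). Hhip, an inhibitor of hedgehog ligands, was at least 1.56-fold higher (adjusted p = 0.0787), and Cfap58, a cilia and flagella protein, at least 1.61-fold higher (adjusted p = 0.197). None of these passed the threshold, and the control arrays of each spread over more than 1.5 log2 units. Prr15 did pass, and read -2.43, -2.70 and -2.40 against -3.35, -3.55 and -3.53 (-0.96, SE 0.10; adjusted p = 0.0127). Without control A, 361 genes met the repetition rule. Of the repeated genes 42.6% were higher; this share was 29.5% of 227 with quantile normalization and 18.5% of 54 with normexp.

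**Figure D3:**
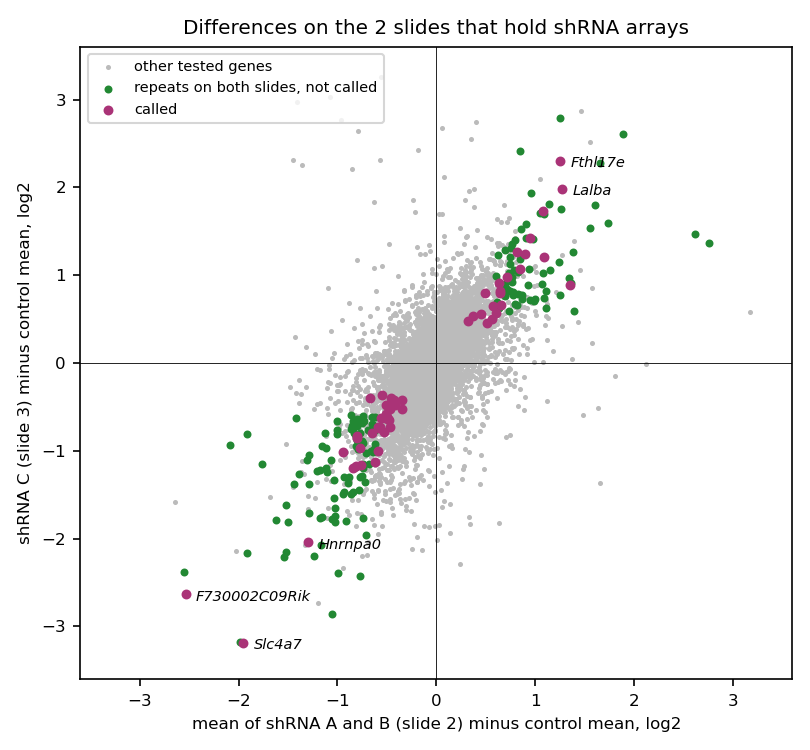
Difference from the control mean (log2) in the mean of shRNA A and B, on slide 2 (horizontal axis), and in shRNA C, on slide 3 (vertical axis), for each tested gene with values on all 6 arrays; both axes share the control arrays. Called genes (purple, 57) and genes that repeat on both slides without being called (green, 159) lie to the lower left and upper right, and Slc4a7, Hnrnpa0 and F730002C09Rik lie at the lower left end.

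Few genes were seen on 1 slide alone by the stricter limits. In 26 genes, 14 higher and 12 lower, C was past 2-fold while A and B were within 1.2-fold of the control mean, and in 31 genes, 8 higher and 23 lower, A and B were past 1.5-fold while C was within 1.2-fold. None of these was called. Of the first kind, Foxred2 read 0.34, 0.16 and 0.37 in the controls, 0.18 and 0.15 in shRNA A and B, and -1.57 in C (limma, adjusted p = 0.286). Asb13 read -2.0, -1.66 and -1.82 in the controls, -1.76 and -1.84 in A and B, and -2.91 in C. Thus 1 clone, on its own slide, stood apart in each. Tfap2a, a transcription factor of epithelial and neural crest cells, went the other way, with -1.91 in C against -3.12 to -2.87 on the other 5 arrays. After 4-OHT, where the 3 shRNA arrays share slide 3, the vectors differed by -0.16 in Foxred2 and -0.12 in Tfap2a, neither called. The named genes of the second kind, Slc8a1, Plac9a and Wnk4, were dim, with no value above -3.70. Myc, the growth-promoting transcription factor, missed the 2-fold limit with a like pattern: it read between 4.73 and 4.77 on the 3 control arrays and shRNA A and B, and 4.12 in C.

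Other probes of the called genes gave a mixed picture. Of the 57 genes, 20 had another probe well above background on 3 arrays of a group, 32 probes in all, and 62.5% of these had the sign of the tested probe, against 59.4% of 6636 such probes over all tested genes. At an unadjusted p under 0.05 in limma, 5 of the 32 differed in the same direction and 2 in the opposite. Of the 6636 probes over all tested genes, 1056 and 533 did so, which are similar shares. The 2 opposite ones were 1 of Arnt (0.32 beside -0.73) and 1 of Pitpnc1 (0.42 beside -0.79). The 5 in the same direction belonged to Hnrnpa0 (-1.37 beside -1.54), Fam3c (-0.56 beside -0.62), Rnase4 (0.48 beside 0.59), Uevld (-0.92 beside -0.49) and Plcb1 (0.33 beside 0.43). The other probe of Zfp652 differed by 0.17 beside 1.30. Tial1 was a counter-case, since its other probe read 0.76, 0.84 and 0.80 in the controls and 0.70, 0.82 and 1.39 in the shRNA arrays, a difference of 0.17 (SE 0.15). The other probes of Arnt differed by -0.08, 0.32 and 0.22 beside -0.73 for the tested probe. Those of Arhgap26 differed by -0.06 and 0.02, and those of Arid5b by 0.09 and 0.04. Those of Hdac9 differed by -0.0049 and -0.14 beside -0.58, and that of Nab1 by -0.05 beside -0.55. The other probe of Mib1 differed by 0.12 beside -0.55, and those of Ndst1 by -0.10 and 0.22 beside -0.37. For Arnt, Arhgap26, Arid5b, Hdac9, Nab1, Mib1 and Ndst1 no other probe above background matched the tested one in size and direction. B4galt1 was mixed: 1 other probe, with values on all 6 arrays, differed by -0.14, and another, without values in control A and B, read 3.21 in control C against 2.65, 2.51 and 2.58 in the shRNA arrays.

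The arrays after 4-OHT allow the called genes to be looked at again in samples the calls before 4-OHT did not compare, although they come from the same clones as far as the labels tell and share the fit's estimate of the spread. There too the vectors share no slide, with controls on slides 1 and 2 and shRNA arrays on slide 3, so a slide difference and a vector difference cannot be told apart in the repeat either. Of the 57 genes, 54 kept their direction after 4-OHT (94.7%, against 77.1% of all tested genes), and 48 were called in that direction (84.2%, against 15.99% of all). The comparison after 4-OHT called 2512 genes (16.7%). Of the 35 falls 33 were called lower (8.82% of all genes were), and of the 22 rises 15 were called higher (7.85% of all genes were). Slc4a7 differed by -2.04 after 4-OHT (limma, adjusted p = 0.0120), Hnrnpa0 by -2.10 (0.00511), Fthl17e by 1.49 (0.0139), Tial1 by -0.74 (0.0130) and B4galt1 by -0.76 (0.00740). In each of these the 3 shRNA arrays after 4-OHT stayed clear of the 3 control arrays.

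In 3 genes, each dim, the sign turned. TC1419302 differed by 0.03 after 4-OHT, Klra2 by -0.26 and Olfr128 by -0.16, in the opposite direction to before, none of them called. Another 6 kept their sign without being called after 4-OHT. They were the bright E130304I02Rik (0.36; limma, adjusted p = 0.0817), Slc2a6 (0.23; 0.120), Rnase4 (0.22; 0.0837), Nxpe3 (0.22; 0.0768), AK029296 (0.44; 0.112) and F730002C09Rik. F730002C09Rik, the largest difference before 4-OHT, was -0.29 after it (adjusted p = 0.663), with control arrays at -4.84, -3.57 and -3.33 and shRNA arrays at -5.08, -3.77 and -3.75. The interaction of vector and 4-OHT was called by limma for 0 genes (791 at an unadjusted p under 0.05, 5.25%), so no gene passed a test of a different effect before and after.

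Slide offsets were set beside the changes. Control arrays after 4-OHT lie on slide 1 (A) and slide 2 (B and C), which gives the only view of 1 vector and treatment on both. Of the 57 called genes 55 have this offset, since Prcc and Nab1 lack control A after 4-OHT. It had the sign of the change in 38 of the 55 and exceeded 0.5 of the change, in that direction, in 0 of 55, against 46.1% of the 14689 tested genes that have one. A large offset raises the fit's own spread and so lowers the chance of a call. Calls also favour large changes, with a median size of 0.63 against 0.15 over all genes. The same offset is a smaller part of a larger change, so these shares are not a test of slide. shRNA C was the furthest of the 3 shRNA arrays from the controls in 41 of 57 called genes (71.9%, against 54.0% of all genes).

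**Figure D4:**
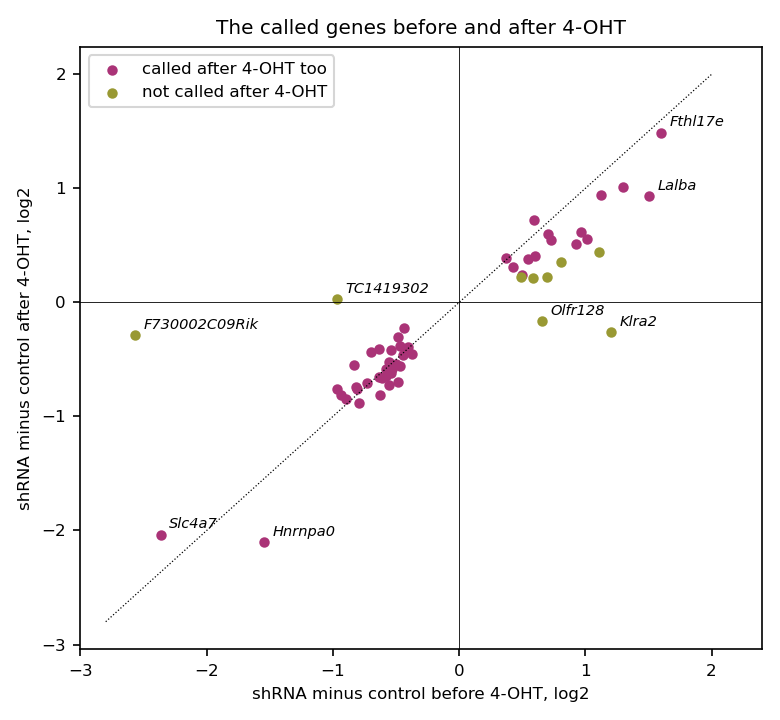
Difference between shRNA and control (log2) before 4-OHT (horizontal axis) and after it (vertical axis) for the 57 genes called before 4-OHT; purple genes were also called after 4-OHT, and the dotted line marks equal differences. Most points lie near the line where both differences have 1 sign, while F730002C09Rik, Klra2, Olfr128 and TC1419302 lie away from it.

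Among RNA-binding proteins of the AU-rich element and hnRNP list, 2 of 30 tested members passed, Hnrnpa0 and Tial1, both lower. The other 28 did not, and 0.378% of all genes passed. Hnrnpa0 is the shRNA's own target, so its call says nothing of the list, and the other probe of Tial1 differed by 0.17. The count is read no further. The median difference of the list was -0.15 against -0.03 over all tested genes. It was -0.02 once the trends on probe GC content and signal were removed. In 13 members the 3 shRNA arrays lay below the controls and in 3 above, where 19.2% and 12% of all genes did so. Elavl1 (HuR), the stabilising AU-rich binder, read 4.28, 4.15 and 4.29 against 4.05, 3.85 and 3.59 (-0.41, SE 0.13; limma, adjusted p = 0.114), with its other probes at -0.24 and -0.32. Zfp36 (tristetraprolin), which speeds decay of AU-rich messages, read 0.04, 0.25 and 0.46 against -0.19, -0.12 and -0.28 (-0.44, SE 0.13; adjusted p = 0.109), with -0.78 for its other probe. Ptbp1, the polypyrimidine tract binder, differed by 0.39 (adjusted p = 0.0853). Tia1, the close relative of Tial1, differed by 0.03 on its tested probe and by 0.84, 0.55 and 0.10 on its other 3. Hnrnpa1 was saturated on 4 of the 6 arrays, and Hnrnpa3, Hnrnpab, Hnrnpf, Hnrnpk, Hnrnpm, Hnrnpu and Pcbp1 on all 6. Hnrnpa2b1 and Pcbp2 were saturated on 3. Differences in these genes were not measured in full, which also limits the median and counts of the list.

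Of 29 tested cytokine and immediate early genes known for AU-rich elements, 0 were called, where 0.378% of all genes were. A list of this size would hold few calls at that rate, and the count is read no further. The median was -0.14, and in 9 the shRNA arrays lay below the controls and in 0 above, against 19.2% and 12% of all genes. Egr2, a zinc finger factor of macrophage differentiation, read -0.86, -0.38 and -1.15 against -1.17, -1.36 and -1.75 (-0.63, SE 0.20; limma, adjusted p = 0.122). Ccl4, a chemokine, differed by -0.49 (0.103) and Jun by -0.27 (0.0960). Tnf differed by 0.17 and was likewise not called. In this list Dusp6 and Klf2 were saturated on all 6 arrays and Cish on 3, so their differences were not measured in full. Of 13 tested genes of the MK2 and hnRNP A0 checkpoint list, 0 were called, likewise beside 0.378% of all genes. Gadd45a, a growth-arrest gene whose mRNA hnRNP A0 is known to stabilise after DNA damage, read 3.11, 3.24 and 3.22 against 3.0, 3.0 and 2.60 (-0.33, SE 0.14; adjusted p = 0.204). Cdkn1b, the inhibitor p27, lacked a value in control B and differed by -0.105 (SE 0.12; adjusted p = 0.622). Another of its probes, above background on all 6 arrays, went the other way, with -2.60, -2.50 and -2.76 against -2.24, -2.26 and -2.21 (0.38; limma, unadjusted p = 0.000956). Mapkapk2, which encodes MK2, differed by 0.25 (adjusted p = 0.133), and Cdc25a, a phosphatase that drives the cell cycle, by 0.31 (adjusted p = 0.0753).

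Of the transcription factors and cytokine receptors of myeloid fate chosen for description, none passed before 4-OHT, where 0.378% of all genes did. Egr2, given above, had the largest difference among those above background. Spi1, which encodes PU.1, was 1.95, 1.66 and 1.66 in the controls and 1.82, 1.58 and 1.67 in the shRNA arrays. Gfi1, the granulocyte repressor, read 5.01, 4.96 and 4.99 against 4.93, 5.04 and 5.09, with 2 of the 6 spots saturated. In both genes the groups overlapped. Cebpa, the granulocyte factor, read 3.80, 3.80 and 3.98 against 4.05, 4.03 and 4.08, without overlap but without passing (0.19, SE 0.07; limma, adjusted p = 0.160). Its other probe differed by 0.39. Kit, the stem cell factor receptor, differed by 0.11 (0.331), Myb by -0.12 (0.442), Gata2 by -0.0031 (0.993) and Il3ra by 0.12 (0.418). Csf3r, the receptor of granulocyte colony-stimulating factor, differed by 0.11 (0.531). The tested probe of Csf1r was not well above background on any of the 6 arrays, and Cebpe and Egr1 were not among the tested genes.

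With 0.378% of all genes called, lists of this size would hold few calls at the same rate, and the counts below are read no further. Of the genes tested, 0 of 16 of neutrophil primary granules, 0 of 19 of late granulocytes, 0 of 35 of monocytes and macrophages, 0 of 13 of mast cells and basophils and 0 of 6 of eosinophils passed. Their medians were 0.03, 0.09, -0.18, -0.0031 and -0.37, against -0.03 over all tested genes. The same held for 0 of 8 erythroid, 0 of 11 megakaryocyte, 0 of 7 T cell, 0 of 7 B cell and 0 of 9 dendritic cell genes. Of 21 stem and progenitor genes, Zfpm1 alone passed. The eosinophil genes were dim, with 0 of 6 well above background on all 6 arrays and 4 on none. Their median was 0.01 with quantile normalization (-0.08 over all genes). With quantile normalization 1 monocyte and macrophage gene was called higher and 1 erythroid gene lower. Among the primary granule genes, Ctsg and Ms4a3 were saturated on all 6 arrays and Mpo on 4, so their differences were not measured in full. Of the monocyte and macrophage genes, 23 of 35 were well above background on all 6 arrays and 11 on none, and the summed linear signal of that list, as multiples of the 75th percentile, ran from 186 to 242 in control arrays and from 176 to 218 in shRNA arrays. Fewer cells of a type and less RNA per cell cannot be told apart in such bulk samples.

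For growth and stress lists the counts were likewise near the share over all genes. They were 0 of 26 G1/S genes, 0 of 32 G2/M genes, 0 of 19 p53 targets, 0 of 21 IL-3 and STAT5 feedback genes, 0 of 25 interferon-stimulated genes and 0 of 25 for endoplasmic reticulum and integrated stress. For heat shock, glycolysis and hypoxia, and cholesterol synthesis they were 0 of 18, 0 of 29 and 0 of 24. With quantile normalization 1 p53 target, 2 IL-3 and STAT5 genes, 1 G1/S gene and 1 gene of the stress list were called, all lower. The p53 targets had a median of -0.13 (-0.03 over all genes), or -0.05 once the GC and signal trends were removed (0.001 over all). Their shRNA arrays lay below the controls in 9 of 19 and above in 1 (19.2% and 12% of all genes). Among them, Phlda3, a p53-induced brake on Akt, differed by -0.42 (limma, adjusted p = 0.0762), and Polk, a translesion polymerase, by 0.34 (0.113). Fthl17e was the 1 called gene of 19 for ferritin and iron handling, and Slc4a7 the 1 of 18 for bicarbonate and acid handling, where Slc26a6, an anion exchanger, differed by 0.38 (0.0745). Of 32 orthologues of genes in human 5q deletions Hnrnpa0 alone passed; Tifab, an inhibitor of TRAF6 signalling, differed by -0.70 (0.0989) and Etf1, the translation release factor, by -0.27 (0.0956).

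**Figure D5:**
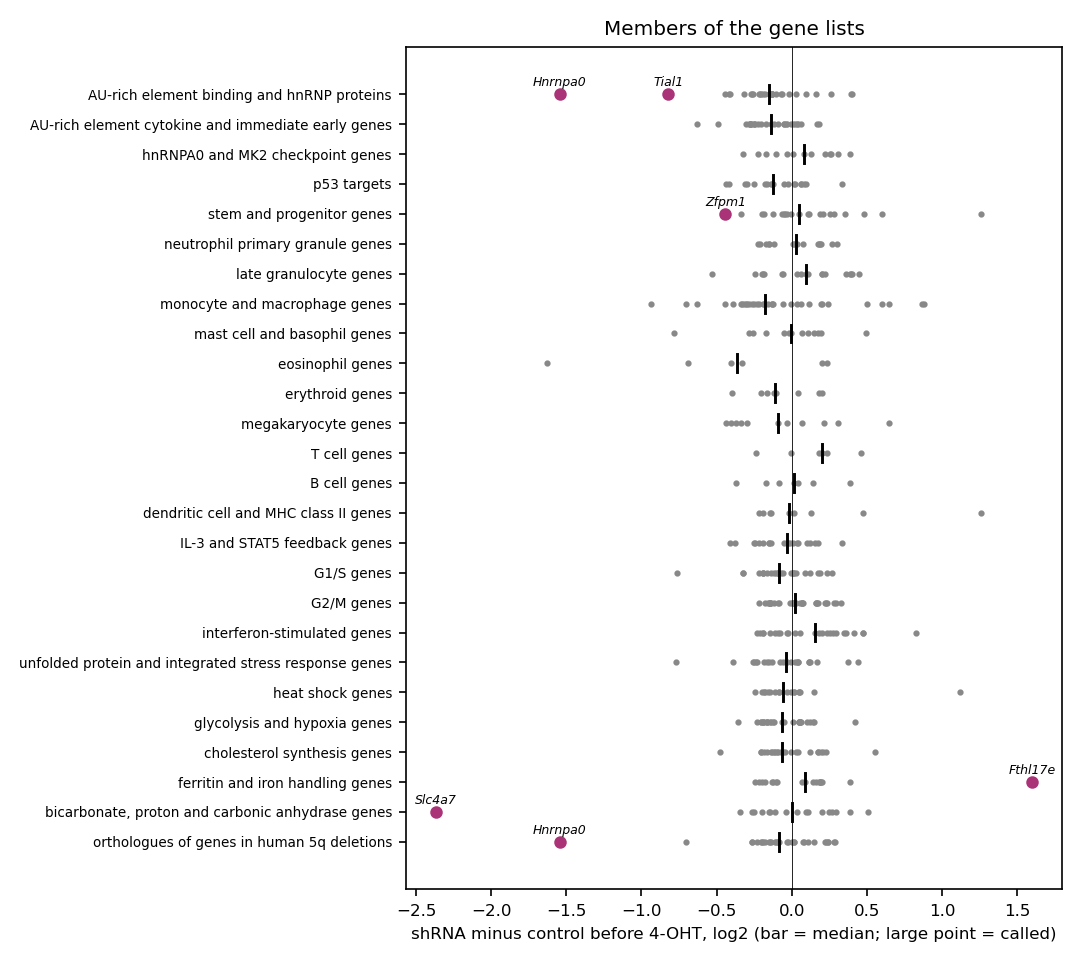
Difference between shRNA and control before 4-OHT (log2) for each tested member of the 26 gene lists (small points), with the median of each list as a bar and called genes as large named points. The medians lie between -0.37 and 0.20, and 5 genes in the lists were called: Hnrnpa0, Tial1, Zfpm1, Fthl17e and Slc4a7. The lowest median is that of 6 eosinophil genes, 4 of them not well above background on any of the 6 arrays.

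Since Lalba and Csn1s1 both encode milk proteins, their other genes were looked at after these values were seen. Csn2, the β-casein gene, was saturated on all 6 arrays. Csn1s2a read 2.80, 3.13 and 2.95 in the controls and 2.63, 2.75 and 2.81 in the shRNA arrays, a difference of -0.23 with overlapping groups. Csn3, Wap and Csn1s2b were not well above background on any of the 6 arrays. A rise was thus seen in Lalba and Csn1s1, none in Csn1s2a, and Csn2 could not show one.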

How the data were processed

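RNA was labelled with Cy3 and hybridised to 12 one-colour arrays. Per the file headers, spots were quantified by Agilent's Feature Extraction, version 9.5.3.1 (9.5 in the submitters' processing notes), and the deposited values are linear intensity per spot after background subtraction, without scaling between arrays. A deposited table holds the same intensity rounded, within 0.497%. Here control and outlier spots were dropped, repeat spots averaged by probe, and each array's 75th percentile (1196 to 2583) taken off on the log2 scale. Of 41174 probes, 23075 were named by transcript, 6582 by symbol and 3077 by older symbol; 8440 kept the file's name. Genes were tested on 1 probe, the brightest, when at least 3 of 12 arrays showed it well above background and it was present on at least 2 per group, which left 15062. Probe positions are those of build mm7, per the file headers.

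limma 3.58.1 (R 4.3.3, data.table version 1.17.8) was fitted to 12 arrays with 4 group means, with Benjamini-Hochberg adjustment over all genes and a threshold of 0.05. A fold against a group not well above background is a lower bound, taken per array from the dimmest probe still well above background. The named genes were the 12 largest rises and falls among called genes with a symbol whose groups do not overlap and whose brighter group is well above background, the 6 largest repeated per direction, up to 4 per direction seen on 1 slide, list members past the threshold and fixed regulators. Members, lists and tests were chosen with earlier results of these data known. On simulated data of 15062 genes, the fit recovered 79% of 100 genes changed by 1 log2 unit and 56% of 100 changed by 0.5, with 6 unchanged genes called. The effect of a slide difference between the vectors on these counts was not tested. The same letters did not pair control and shRNA arrays before 4-OHT (r = -0.087, 0.083 and -0.017 between their deviations). Over the other pairs of groups, r of the same letter ran from -0.036 to 0.304. The number of arrays limits the precision. Alternatives covered slide, scaling, background, filters and single arrays. Plots used matplotlib 3.10.9 under Python 3.11.15. Some results that meet the rule for named genes are not reported here.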

Additional observations from a re-analysis of the deposited data

How the results depend on the processing

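The count of 57 genes became 0 with slide as a fixed or random block, 1 in a fit to the 6 arrays alone, 394 with quantile normalization (54 of the 57 among them), 2 with normexp, 10 without a filter on dim probes, 163 with probes well above background on all 3 arrays of a group, and 126 after removal of GC and signal trends (71 higher, 55 lower; chosen after seeing the data). It was 59 with the deposited table and 81 with every probe tested. With the replicate letter as a block it was 185, and 56 of the 57 remained. Letters did not pair control and shRNA arrays before 4-OHT, and their pairing between other groups was uneven. Leaving out 1 array gave 0 to 496 genes. For Hnrnpa0 the difference was -1.38 with the fixed slide block, -1.57 with the random one and -1.54 in the 6 arrays alone, none past the threshold; without single arrays it ran from -1.76 to -1.30, and it was -1.54 with the replicate letter as a block. Over 23 alternatives Hnrnpa0 passed in 17. Of the 183 genes that repeat on both slides, 37 reached 2-fold, and normexp gave 54 (10 higher); without single controls there were 188 to 361. Of the called genes, 51 to 55 kept their direction after 4-OHT under the alternatives. Klra2 reversed with normexp (-0.086). Each cause was not tested. In the 3-against-3 design no exact permutation test of a single gene can go below 0.1.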
